A study of Mus musculus with 13 samples.

Results

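The 7 genes described here are Cntnap2, Ctnna2, Magi1, Foxp1, Cntn4, Grm7 and Sox5, very long protein-coding genes of mouse chromosome 6 that are known for roles in neurons. The rule that picks them uses gene names and no insertion values, though it was proposed with earlier results of these data known. The values are the transposon insertion sites inside their annotated spans, which together cover 7.45 Mb, or 5.08% of the annotated part of the chromosome. They are 7 of 147 protein-coding genes of chromosome 6 with a span of at least 100 kb, and of 1112 protein-coding genes of the chromosome in all. In the plasmid pool they held 94 of the 31146 sites of the library, and in the remobilized pool 2 of 746.

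The study mapped insertions of a Sleeping Beauty transposon, a mobile element that is cut out of DNA and inserts elsewhere, in F123 cells, a CastX129 hybrid line of mouse embryonic stem cells. T7 RNA polymerase transcribed purified DNA from a promoter inside the transposon into the flanking genome, and reads that crossed the transposon end gave the first genomic base. Both pools carry wild type as their genotype label, come from 1 sequencing run and were grown without serum with 2 kinase inhibitors and LIF. Neither pool has a replicate, so each test compares places or libraries, not conditions, and intervals cover counting error only.

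The plasmid pool (labelled as a positive control, with the transposon labels of the study, named TRACK-IT, mobilized at random from transfected plasmids in many copies) held 63031 placed reads, 3648 of them at 1755 sites of chromosome 6. The remobilized pool (a TRACK-IT parental line after expression of the Sleeping Beauty enzyme) held 2116 placed reads, 790 of them at 244 sites of chromosome 6. Distances are measured from position 51316894 of this chromosome, called home here, the one whose distances to the insertions of 9 clonal lines best fitted the separations in their names. The labels do not say that the transposons of the remobilized pool started there. The control without transposons had 0 placed reads, and the 9 clones, of a rad21-dTag genotype and another run, had 0 sites in the 7 genes. Coordinates are 1-based mm10 (GRCm38) positions with GENCODE M21 genes. A site is a group of positions no more than 10 bp from the next.

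As background, genes of this length consist almost wholly of introns, and many of them code for proteins that neurons use at their membranes and synapses. Cntnap2 (a neurexin-like protein of the axon membrane) and Cntn4 (a contactin, an adhesion protein anchored to the cell surface) act in contacts between neurons, and Ctnna2 (alpha-N-catenin) ties cadherins to actin. Grm7 is a metabotropic glutamate receptor of presynaptic terminals, and Magi1 is a scaffold protein of cell junctions, also in epithelia. Foxp1 and Sox5 are transcription factors that also act outside the nervous system. Sleeping Beauty inserts at the dinucleotide TA, which is abundant throughout introns. No expression was measured in these samples, so neither the state of these genes nor the word neuronal in their description was checked.

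The bases at a site could be read from annotated transcripts at 3 of the 96 sites. They are shown because they place the deposited base relative to the TA at which the transposon inserts. All 3 belong to the plasmid pool, all 3 have minus as their deposited strand, and 0 lie in a coding part of the gene. Each stretch is 21 bases of the plus strand of chromosome 6 with the site as its middle base, and capitals mark the TA.
Cntnap2, last exon, chr6:47299136-47299156: caaagagccTAtttgcccagt
Ctnna2, transcript Gm44435 inside an intron, chr6:77412441-77412461: cagggaaccTAactaatgaag
Magi1, exon of a noncoding Magi1 transcript, chr6:94237384-94237404: aagtgcaggTAtgtcctgtct
At all 3 sites the deposited base was the A of this TA.

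In the plasmid pool the 7 genes were hit at nearly the density of the chromosome around them. Their 94 sites gave 12.6 sites per Mb (95% exact Poisson interval 10.2 to 15.4), against 12.0 per Mb over the whole of chromosome 6. The number at the density of chromosome 6 at like distance was 83.7, so the observed number was 1.12 times it (0.908 to 1.37, from the count in the genes alone). With only sites of at least 5 reads, of which the 7 genes held 2, it was 0.266 times. Like distance means all of chromosome 6 outside the 7 genes that lies as far from the home position as the gene, with 2 Mb added at each end of the range, on both sides where the chromosome reaches that far. Over the chromosome outside the 7 genes, the plasmid pool varied between 8.5 and 15.5 sites per Mb from the nearest to the farthest distances. In the remobilized pool it was 63.0 per Mb within 1 Mb of home, 1.5 per Mb (3 sites) from 1 to 2 Mb, 4.39 per Mb from 2 to 5 Mb, and between 0.229 and 1.15 per Mb in the steps beyond 5 Mb.

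**Figure D1:**
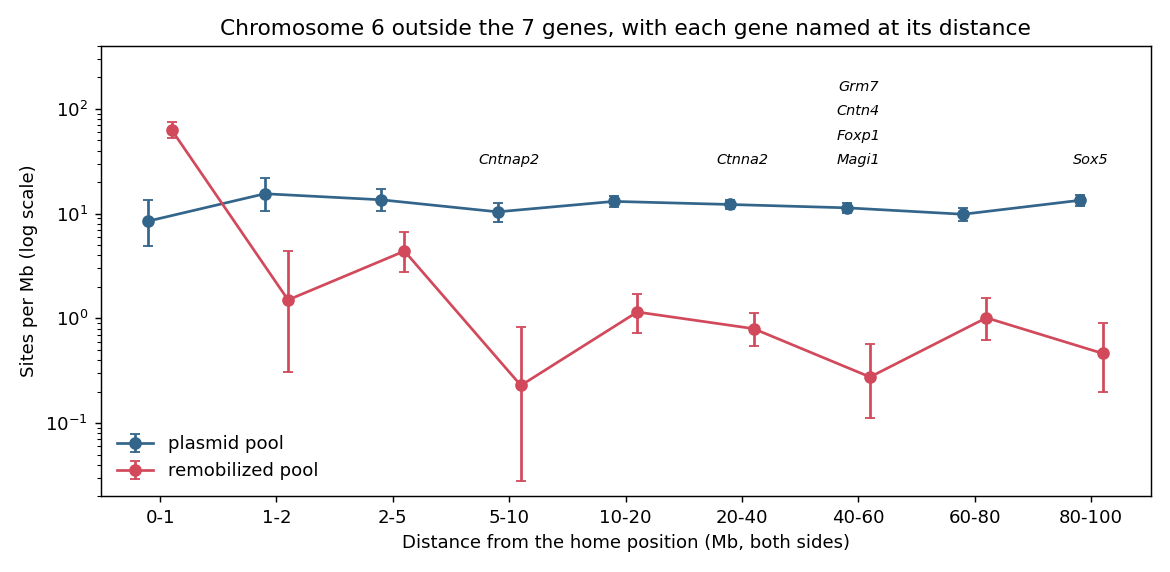
Sites per Mb (log scale) of chromosome 6 outside the 7 genes against distance from the home position, both sides combined, in the plasmid pool (blue) and the remobilized pool (red), with 95% exact Poisson intervals. Each gene is named above the step that holds its midpoint. The blue points stay between 8.5 and 15.5 per Mb, while the red points stand at 63.0 per Mb in the first step and 0.462 per Mb in the last.

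Against like distance, 0 of the 7 genes was called in the plasmid pool (two-sided exact binomial test, Benjamini-Hochberg over 147 genes), and percent called over all 147 was 0. At an unadjusted p under 0.05 there were 14 of 147 genes, and 1 of the 7, Magi1. The lack of calls among the 7 thus equals the background and sets them apart from no other genes. The ratio to like distance was above 1 for 5 of the 7 genes and for 73 of the 147. Its median was 1.11 over the 7 and 0.999 over the 147.

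The adhesion genes had ratios to like distance between 0.975 and 1.19. Cntnap2 spans 2.24 Mb of chromosome 6 (45059357 to 47304213, plus strand), between 4.01 and 6.26 Mb below home, and is the nearest of the 7. It held 28 sites with 49 reads in the plasmid pool, or 12.5 sites per Mb (8.29 to 18.0), against 12.7 at like distance. The ratio was 0.983 (0.629 to 1.49; exact binomial test, adjusted p 1). The 500 kb on either side of Cntnap2 were denser, with 24 sites per Mb together, a difference that was not tested. Ctnna2 spans 1.10 Mb (76881637 to 77979699, minus strand), 25.6 to 26.7 Mb above home. It held 12 sites with 29 reads, or 10.9 per Mb (5.65 to 19.1), and chromosome 6 at like distance had 11.2. Cntn4 spans 1.02 Mb (105677660 to 106699310, plus strand), 54.4 to 55.4 Mb above home. It had the lowest density of the 7, with 10 sites, 14 reads and 9.79 sites per Mb (4.69 to 18.0), but its surroundings were sparse as well, with 8.25. The ratios were 0.975 (0.488 to 1.78) for Ctnna2 and 1.19 (0.522 to 2.46) for Cntn4, both with an adjusted p of 1 in the exact binomial test.

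Of the scaffold and receptor genes, Magi1 had the highest density of the 7. It spans 608.5 kb (93675455 to 94283917, minus strand), 42.4 to 43.0 Mb above home, and held 14 sites with 34 reads, or 23.0 sites per Mb (12.6 to 38.6). At like distance there were 12.3 per Mb, and the ratio was 1.87 (0.988 to 3.28; exact binomial test, p 0.0397, adjusted p 0.486). The 500 kb on either side of Magi1 held 2 sites upstream and 7 downstream, 9.00 per Mb together. Grm7 spans 921.6 kb (110645581 to 111567230, plus strand), 59.3 to 60.3 Mb above home, with 11 sites, 19 reads and 11.9 sites per Mb (5.96 to 21.4). Chromosome 6 at like distance had 10.8 per Mb there, a ratio of 1.11 (0.516 to 2.19; exact binomial test, adjusted p 1).

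The transcription factor genes also fell near a ratio of 1. Foxp1 spans 597.4 kb (98925338 to 99522721, minus strand), 47.6 to 48.2 Mb above home. Its 8 sites with 17 reads gave 13.4 per Mb (5.78 to 26.4), against 11.8 at like distance. An annotated gene, Gm20696, overlaps Foxp1 on the same strand, so that a site in the shared part belongs to both spans. Sox5 spans 953.6 kb (143828425 to 144781977, minus strand), and at 92.5 to 93.5 Mb it is the farthest of the 7 from home. Its 11 sites with 24 reads gave 11.5 per Mb (5.76 to 20.6), against 10.5 at like distance. The ratios were 1.14 (0.474 to 2.35) for Foxp1 and 1.10 (0.510 to 2.17) for Sox5, with an adjusted p of 1 each in the exact binomial test.

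Ordered by density in the plasmid pool, the genes ran Magi1, Foxp1, Cntnap2, Grm7, Sox5, Ctnna2 and Cntn4. The exact intervals of neighbours in this order overlapped in every case, and that of Magi1 (12.6 to 38.6) also overlapped that of Cntn4 (4.69 to 18.0). The genes nearest to and farthest from home, Cntnap2 and Sox5, had 12.5 and 11.5 sites per Mb. For Cntn4, Grm7 and Sox5 the chromosome reaches such distances only above home, so that their comparison rests on 4.00 Mb and between 33 and 43 sites each.

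**Figure D2:**
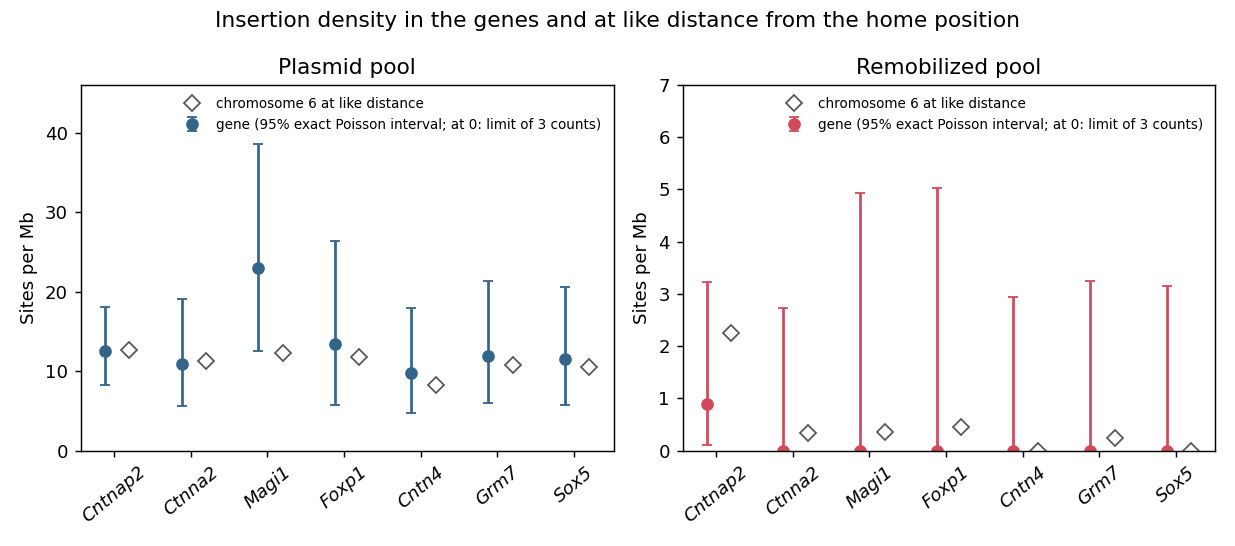
Sites per Mb in each of the 7 genes (filled points, 95% exact Poisson interval, or the limit of 3 counts where no site was found) and in chromosome 6 at like distance (open diamonds), in the plasmid pool (left) and the remobilized pool (right). On the left the genes run from 9.79 in Cntn4 to 23.0 in Magi1 per Mb. On the right only Cntnap2 had sites, with 0.891 per Mb beside 2.25 at like distance.

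The 7 genes were also set against other genes and against the space between genes. Chromosome 6 at like distance but inside other protein-coding genes would give 81.7 sites in the 7 spans, and outside annotated genes 87.9, against the observed 94. Their ratios to these were 1.15 and 1.07. For Cntn4 the surroundings had 5.06 sites per Mb in other genes (5 sites) and 9.27 outside genes (26 sites), and its ratios to them were 1.93 and 1.06 (exact binomial test, adjusted p 1 for each). For Grm7 the values were 14.6 and 9.84 sites per Mb, and for Sox5 8.33 and 13.1, with its own 11.5 between them.

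Among the 17 genes of at least 500 kb on chromosome 6, Magi1 had the second highest ratio to like distance and the other 6 genes ranked from 7 to 14. The highest ratio was that of Exoc4 (a subunit of the exocyst, which tethers vesicles to the membrane), with 21 sites, 29.0 per Mb and a ratio of 2.43 (1.44 to 3.91; exact binomial test, adjusted p 0.0874). Fam19a1 followed Magi1 at 1.55 and Ccser1 at 1.30. Ratios below 1 included 0.673 for Lrrtm4 (a postsynaptic adhesion protein) and 0.894 for Foxp2 (a relative of Foxp1). The median was 1.15 over the 10 that are not among the 7.

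A list of 26 other chromosome 6 genes with neuronal or synaptic roles gave a similar picture. Of these, 22 were long enough to be tested, and 4 span less than 100 kb. In the exact binomial test with adjustment over 147 genes, 0 of the 22 was called, as in the background. Their ratio was above 1 for 10 of the 22 genes, against 73 of the 147, with a median of 0.990. An unadjusted p under 0.05 was found for 3 of the 22, beside 14 of the 147. These 3, named after their values were seen, were Cntn3 (ratio 2.31), Chl1 (2.73) and Grin2b (2.07). Cntn3 codes for a contactin, Chl1 for another neural adhesion protein, and Grin2b for an NMDA receptor subunit. Their adjusted p-values in the exact binomial test were 0.486, 0.365 and 0.365. Low ratios in the list, also named after they were seen, included 0.652 for Cntn6 (another contactin), 0.307 for Plxna4 (a semaphorin receptor) and 0, with no site, for Pdzrn3.

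**Figure D3:**
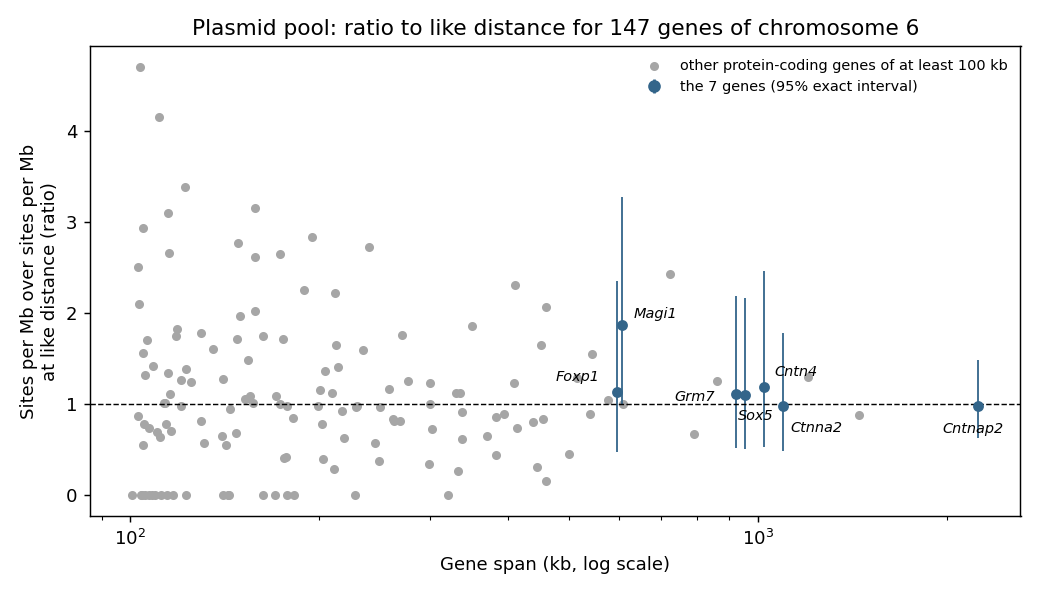
Ratio of sites per Mb in a gene to sites per Mb at like distance in the plasmid pool, against gene span (log scale), for 147 protein-coding genes of chromosome 6; the 7 genes are blue with 95% exact intervals, and the dashed line marks a ratio of 1. Short genes, which hold few sites, scatter widely, and the 7 genes lie between 0.975 and 1.87.

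In the remobilized pool, Cntnap2 was the only one of the 7 genes with a site. Its 2 sites had 2 reads each, and both were on the strand of the gene. One lay at 46784442 in intron 14, 4.53 Mb from home and 8.44 kb from the nearest site of the plasmid pool. The other lay at 47278774 in intron 22, 4.04 Mb from home, 25.4 kb from the end of the gene and 3.64 kb from the nearest plasmid pool site. Both were thus in the part of the gene that faces home, and the 1725 kb from the start of the gene to the first of them held no site. The pools shared 0 sites in the 7 genes.

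The density of Cntnap2 in the remobilized pool was 0.891 sites per Mb (0.108 to 3.22), against 2.25 per Mb, from 23 sites, at like distance. The ratio was 0.397 (0.0454 to 1.61; exact binomial test, adjusted p 1), and percent called over the 147 genes was 0, with 5 genes at an unadjusted p under 0.05 and none of the 7 among them. The interval of this ratio holds both a deficit and an excess. The ratio was 0.210 with only the side of the gene compared, 0.830 with at least 2 reads per site, and 0.117 with the distance range widened by 5 Mb, which takes in home itself; only the last was called (exact binomial test, adjusted p 0.00343). The 500 kb next to the gene on the side of home held 6 sites of the remobilized pool, and the 500 kb on the far side 0. The plasmid pool had 17 and 7 sites in these stretches.

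Over all 7 genes the 2 sites were 0.327 times (0.0396 to 1.18) the number at like distance, and this value was 0.694 with at least 2 reads per site, 0.183 with only the side of each gene and 0.105 with the range widened by 5 Mb. The other 6 genes, Ctnna2, Magi1, Foxp1, Cntn4, Grm7 and Sox5, had 0 sites of the remobilized pool in 5.20 Mb, which allows up to 0.577 sites per Mb. The number at the density of their surroundings was 1.07, so a shortfall was not detectable at this depth. For single genes the limit ran from 2.73 sites per Mb in Ctnna2 to 5.02 in Foxp1. Chromosome 6 at like distance held 3 sites each for Ctnna2, Magi1 and Foxp1, 1 for Grm7, and 0 for Cntn4 and Sox5.

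Between the pools, 0 of the 7 genes was called, and percent called over the 147 genes was 0 (two-sided Fisher's exact test on sites, adjusted over 147; 1 gene had an unadjusted p under 0.05, and it was none of the 7). On chromosome 6, Cntnap2 took up 0.820% of remobilized and 1.60% of plasmid pool sites, an odds ratio of 0.510 (0.0585 to 2.04; Fisher's exact test, adjusted p 1). With the 126 remobilized and 17 plasmid pool sites within 1 Mb of home left out, the odds ratio was 1.05 (Fisher's exact test, adjusted p 1). With only like distance as the rest, it was 0.404 (0.0438 to 1.80; Fisher's exact test, adjusted p 1). The other 6 genes held between 0.456% (Foxp1) and 0.798% (Magi1) of plasmid pool sites on chromosome 6 and 0% of remobilized ones. For these 6, 0 sites is the lowest count possible, yet the unadjusted p was between 0.379 and 0.621 (Fisher's exact test). A deficit in them thus could not have been called at this depth.

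The insertions showed no call for orientation in the plasmid pool. Over the 7 genes, 47 of 94 sites lay on the strand of the gene (50%, 95% exact Clopper-Pearson interval 39.5 to 60.5). The deposited strand is meant here, and how it relates to the direction of the transposon is not given in the sources used here. The shares ran from 25.0% in Foxp1 (2 of 8 sites; 3.19 to 65.1) to 72.7% in Grm7 (8 of 11; 39.0 to 94.0). Cntnap2 had 16 of 28 sites on its strand, Magi1 7 of 14, Sox5 5 of 11, Ctnna2 5 of 12 and Cntn4 4 of 10. In exact binomial tests against equal shares, adjusted over the 27 genes with at least 6 sites, 0 of the 7 was called and percent called was 0. At an unadjusted p under 0.05 there were 2 of the 27, and none of the 7. Each of the 2 had 0 of 6 sites on its strand (exact binomial test, p 0.031, adjusted p 0.422). The minimum of 6 sites thus reaches 0.05 only before adjustment, and the lack of calls says little about genes with few sites. Gm20696, which overlaps Foxp1 on the same strand, was among the 2, and some of its sites may also be sites of Foxp1.

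Positions within the genes were described without a test. In the plasmid pool, 92 of the 94 sites lay outside annotated exons of their gene, whose longest transcripts are between 0.379% and 1.30% exon. In Cntnap2, 7 sites lay between the start and the midpoint and 21 beyond it. Its first intron, the longest at 593.6 kb, held 3 sites, or 5.05 per Mb, and the longest stretch of the gene without a site, 254.4 kb, began 118.0 kb from the start. The site nearest to its start was at 45177352, and the one nearest to its end, 5.07 kb from it, is the exonic site shown above.

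In Magi1, 10 of 14 sites lay in the first intron, which covers 339.7 of the 608.5 kb of the gene, at 29.4 per Mb, and 4 lay in the rest. Only 2 of the 10 lay within 100 kb of the start of the gene. Its nearest site to the start lay 12.3 kb into the gene. Of the 10, 2 sites at 94074991 and 94075053, with 1 read each on the same strand, were 62 bp apart, and whether they are separate insertions cannot be told from the counts. In Grm7 the first intron of 267.9 kb held 1 site, and 8 of the 11 sites lay beyond the midpoint. The 5 Grm7 sites nearest to the start all lay on the strand of the gene, a run picked out after the positions were seen. The 3 opposite sites lay farther on, and over all 11 sites the orientation had an unadjusted p of 0.227 (exact binomial test).

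Ctnna2 had 6 sites on either side of its midpoint, and 5 of its 12 sites lay in intron 8, which covers 461.2 kb. Foxp1 had 4 sites on either side. Its site nearest to the start, at 99517102, lay 5.62 kb into the gene and had 4 reads. Cntn4 had a site 4.49 kb into the gene, 6 sites before the midpoint and 4 beyond it, with 256.0 kb free of sites in its middle. Sox5 had 5 and 6, and 5 of its 11 sites lay in introns of its longest protein-coding transcript, while 6 lay upstream of that transcript within the span of the gene. The longest empty stretch in Sox5 was 313.9 kb.

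**Figure D4:**
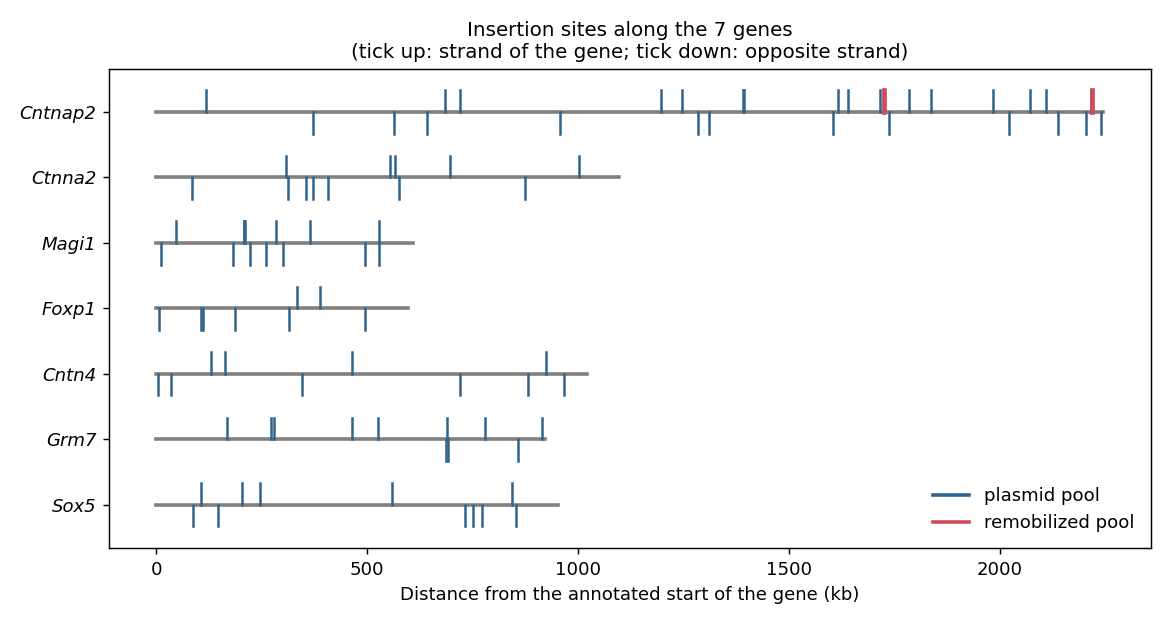
Each gene is a grey line drawn from its annotated start (kb, left) to its end, with a tick for each site of the plasmid pool (blue) and the remobilized pool (red); ticks point up for sites on the strand of the gene and down for the opposite strand. In Cntnap2, 21 of 28 blue ticks lie beyond the midpoint, as do both red ticks, and in Magi1 10 of 14 lie in the first intron.

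Reads per site were few in all 7 genes. The median was 2 reads in Ctnna2, Magi1, Foxp1, Grm7 and Sox5, 1.5 in Cntnap2 and 1 in Cntn4, and 2 at like distance. Sites with 1 read made up 45.7% (35.4 to 56.3) of the 94 and 44.5% of the 535 sites at like distance. By gene their share ran from 35.7% in Magi1 to 60% in Cntn4. In Fisher's exact test against like distance, adjusted over 127 genes with a site, 0 of the 7 was called, percent called was 0, and the 2 genes with an unadjusted p under 0.05 were not among the 7.

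Of the 94 sites, 2 had 5 reads or more, 2.13% (0.259 to 7.48), against 47 of 535 at like distance, 8.79% (6.53 to 11.5). In other chromosome 6 genes of at least 500 kb, a set compared after this was seen, 12 of 112 sites did, 10.7% (5.66 to 18.0). The 2 sites were at 77667257 in Ctnna2 and at 94062593 in Magi1, each with 7 reads and each opposite to the strand of its gene. The best supported sites of the other genes had 4 reads in Cntnap2 (at 46452032 and 47275139), Foxp1 and Sox5, 3 in Grm7 and 2 in Cntn4. With a minimum of 3 reads the shares were 23.4% (15.3 to 33.3) in the 7 genes and 22.8% (19.3 to 26.6) at like distance, and with a minimum of 2 reads 54.3% and 55.5%. The other long genes had 25.9% (18.1 to 35.0) and 63.4% (53.8 to 72.3) at these minimums. The intervals of the 7 genes overlapped those of both other sets at each minimum, which does not show that the shares are equal. At 5 reads the overlap with like distance ran only from 6.53% to 7.48%. By length, such sites numbered 0.269 per Mb (0.0325 to 0.970) in the 7 genes and 1.01 (0.741 to 1.34) at like distance. The differences were not tested.

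**Figure D5:**
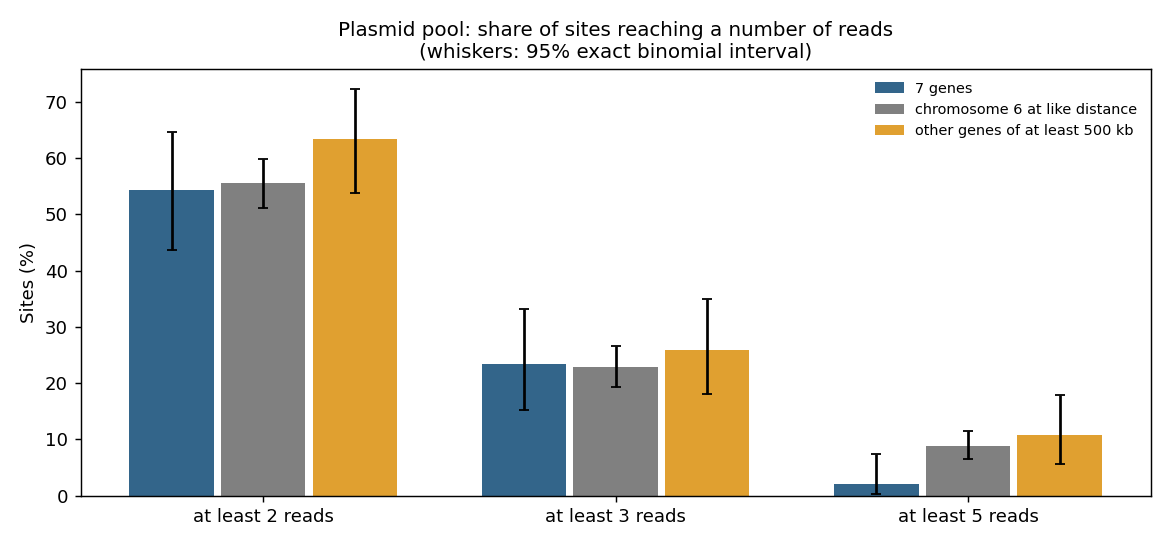
Share of plasmid pool sites (%) with at least 2, 3 or 5 reads in the 7 genes (blue), in chromosome 6 at like distance (grey) and in other chromosome 6 genes of at least 500 kb (yellow), with 95% exact binomial intervals. At 2 reads the bars stand at 54.3%, 55.5% and 63.4%, at 3 reads at 23.4%, 22.8% and 25.9%, and at 5 reads at 2.13%, 8.79% and 10.7%.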

How the data were processed

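The authors deposited, per library, single-base positions with a strand and a read count, as whole numbers without normalization, plus 1 line for reads without a position. The submitters' processing notes name the build mm10 and FastQC, BWA and deepTools. The handling of duplicate reads and filters are not given in the sources used here, and the counts carry no molecular identifiers. The parental library was not analysed here.

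Positions within 10 bp on either strand were merged at the position with the most reads, with no minimum number of reads. The home position was fitted to the clone names. Chromosome 6 was counted between bases 3000001 and 149583656, where its last annotated gene ends, in place of the chromosome end named in the design. Introns were numbered in the protein-coding transcript with the longest span.

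Rates were compared with two-sided exact binomial tests and shares with Fisher's exact tests, with Benjamini-Hochberg adjustment over all genes tested within a comparison and a threshold of 0.05. For genes without a site, 3 counts give the limit. Python 3.11.15 and scipy 1.17.1 were used. The exact binomial tests of density and orientation were tried on simulated sites at the number of the plasmid pool, and the merging on simulated positions. Fisher's exact tests, and the depth of the remobilized pool, were not simulated. The members and lists were chosen with earlier results of these data known. By rule, all 7 genes were named, as was every site of the remobilized pool in them, and of the plasmid pool the best supported, exonic, first and last sites of a gene could be named. Of other genes, those called in the neuronal list and the 3 highest and 3 lowest ratios among genes of at least 500 kb were named, except for a result that is not reported here. The other Magi1 sites and the run of Grm7 sites were named after their values were seen.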

Additional observations from a re-analysis of the deposited data

How the results depend on the processing

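No paired analysis was possible because each pool is a single library. Of 56 alternative values of the counts of called members and of the values over all 7 genes, 53 stayed within 1.5 times the count or within the main interval, which is wide in the remobilized pool. There the number of sites over that at like distance, 0.327 (0.0396 to 1.18), went to 0.694 with at least 2 reads, 0.183 with only the side of the gene and 0.105 with the range widened by 5 Mb. Leaving out only the tested gene changed no ratio of the 7, since none of the others lies in its range, and is no check. With at least 5 reads per site, the number of sites over that at like distance was 0.266 in the plasmid pool and 0 in the remobilized pool. With the distance range widened by 5 Mb, Cntnap2 was called in the remobilized pool, 1 gene of the 7, with a ratio of 0.117 (exact binomial test, adjusted p 0.00343); that range reaches the home position itself, and under the other alternatives its lowest adjusted p was 0.874. Without merging, 1 of the 147 genes, Exoc4, was called in the plasmid pool, where the main count was 0. No plasmid pool ratio of the 7 was called, and 16 of them changed side of 1. Cntnap2 went to 1.02 with merging within 1 kb, 1.07 with 5 Mb and 1.02 against other genes. With at least 5 reads it stayed below 1 and fell to 0. Ctnna2 went to 1.00 with 1 kb merging, 1.09 with at least 2 reads and 1.01 with 1 Mb. Cntn4 went to 0.979 with at least 2 reads, 0 with at least 5, and 0.955 with 5 Mb. Sox5 went to 0 with at least 5 reads, 0.887 with 1 Mb, 0.934 with 5 Mb, and 0.881 outside genes, and its share on the gene strand to 66.7% with at least 2 reads. That minimum also took the share of Ctnna2 on its strand from 41.7% to 14.3%, and 0 of the 7 was called for orientation. Grm7 went to 0.818 against other genes and 0 with at least 5 reads, and Foxp1 to 0 with at least 5 reads. The odds ratio of Cntnap2 between pools became 1.05 beyond 1 Mb from home. This setting takes 126 remobilized and 17 plasmid pool sites near home out of the rest of the chromosome. The causes of the other changes were not tested. Magi1 ranged from 1.18, which rests on 1 site with at least 5 reads, to 2.05 and was above 1 in each alternative that changed it. A rate per TA was not run, since no genome sequence was used here. Depth limits the remobilized pool, with 2 sites in the 7 genes.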
